A study of Mus musculus with 13 samples.

Results

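The genes of cholesterol synthesis, transport and turnover were read on arrays of whole hippocampus from wild-type (Kmt2d+/+) mice and from mice heterozygous for a gene-trap allele of Kmt2d (Kmt2d+/βGeo), a model of Kabuki syndrome. The set was defined by name as 33 genes: 17 enzymes of sterol synthesis, 5 regulators and 11 genes of transport and turnover. It was chosen with earlier results of these data known. Counts set beside shares of all genes therefore describe the set and are no independent test of it. A gene counted as measured where a probe set was annotated to it alone, and of several such probe sets the one of highest mean on the 13 arrays stood for it. By this rule 31 of the 33 were measured, among 19938 genes in all: 17 of 17 enzymes, 5 of 5 regulators and 9 of 11 transport genes. The 2 others, Nr1h2 and Soat1, are in no expression comparison here and enter only the comparison of promoters.

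All mice were C57BL/6J, 1 to 2 months old and fed standard chow, and each was hybridised to an array of its own. Experiment 1 held 4 wild-type and 3 heterozygous mice without injections. Experiment 2 held 3 wild-type and 3 heterozygous mice, all given saline vehicle by injection 3 times a day. The mice were labelled female apart from wild-type replicate 3 of experiment 1, of unknown sex, and this array carried a male pattern: Xist, transcribed from the inactive X chromosome, was at 4.81 log2 units against 10.70 to 11.48 on the 12 others, and the Y-linked Eif2s3y was at 8.14 against 3.56 to 3.67. Each array gives 1 log2 intensity per probe set, so a difference of 1 is a doubling, and intensities of different probe sets cannot be set against each other. The allele is carried in the germline, and whole hippocampus mixes neurons and glia, so fewer cells of a type and less RNA per cell cannot be told apart.

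Some arrays stood apart from their group. Wild-type replicate 2 of experiment 1 had a mean of 6 measured striatal marker genes 2.06 log2 units above the mean of its group, while its 3 group mates were 0.62 to 0.74 below that mean. Its 10 hippocampal neuron markers had a mean 0.23 below. The mean of 10 myelin genes in the heterozygous mice of experiment 1 was 0.18 to 0.57 below the wild-type mean, with replicate 3 the lowest. The median intensity of an array was 6.74 to 6.90 in experiment 1, below the 7.04 to 7.08 of experiment 2. Over all genes, arrays correlated at 0.991 to 0.998 within experiment 1, at 0.985 to 0.994 within experiment 2 and at 0.936 to 0.958 between them. The targeted gene has 2 probe sets. Kmt2d probe set 10432294 was at 7.87, 7.87, 7.87 and 7.90 in wild-type and 7.36, 7.17 and 7.47 in heterozygous mice of experiment 1, and at 8.76, 8.32 and 8.51 against 7.88, 8.0 and 8.18 in experiment 2. Its difference over both experiments was -0.53 ± 0.08 (standard error, SE), with a limma adjusted p of 0.427 when every probe set was tested. This probe set of the targeted gene thus did not pass the threshold used below. Kmt2d probe set 10432298 had the higher mean and so stood for the gene where all genes were tested. It gave 0.07 ± 0.07, and the sources used here do not place either probe set relative to the gene trap.

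The adult brain makes its own cholesterol, because the lipoproteins of the blood do not pass the blood-brain barrier. Synthesis starts from acetyl-CoA, runs through mevalonate and farnesyl diphosphate to squalene and lanosterol, and ends with the enzymes that turn lanosterol into cholesterol. The membrane-bound SREBP transcription factors drive these genes: when sterols are low, SCAP carries them to the Golgi for release, and when sterols are high, the INSIG proteins hold them back. Astrocytes load cholesterol onto apolipoprotein E through ABCA1 and ABCG1, neurons take the particles up through receptors such as LRP1, NPC1 and NPC2 pass cholesterol out of lysosomes, and neurons dispose of the excess through the hydroxylase CYP46A1. Oligodendrocytes, which build myelin, are the heaviest users.

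Promoter sequences were compared between the classes. RefSeq promoters (GRCm38.p6), running from 250 bases before to 50 after each start, were at hand for 27 of the 33 genes, with 38 promoters in all. They were searched on both strands for CCAAT (the box bound by NF-Y, which reads ATTGG on the opposite strand), for TCACNCCAC (a form of the sterol regulatory element), for CACGTG (an E-box) and for GGGCGG (a GC box). No motif contains another. CCAAT was in 14 of the 17 promoters of synthesis genes (82.4%), covering all 14 synthesis genes with a promoter, and in 37.4% of all 32851 promoters. In transport and turnover it was in 3 of 11 promoters (27.3%), those of Cyp46a1, Npc2 and Soat1, and in regulation in 5 of 10. GGGCGG was in 14 of 17 synthesis promoters (82.4%), 8 of 10 of the regulators (80.0%) and 5 of 11 of transport and turnover (45.5%), against 35.7% of all promoters. The sterol element in this spelling was found in 1 member, Hmgcs1, and in 1.24% of all promoters. CACGTG was in 3 synthesis promoters (Dhcr7, Hsd17b7 and Sc5d), in those of Insig1, Scap and Abca1, and in 7.15% of all. A match describes letters and was not tested as a binding site.

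Of these promoters, 5 are printed, for genes that carry the comparisons below, 5′ to 3′ on the gene's strand, with CCAAT, TCACNCCAC and CACGTG in capitals. Hmgcs1 lies at chr13:119690101-119690400 on the plus strand, with the sterol element at position -137 from the start and 4 CCAAT boxes, all inverted. Idi1 lies at chr13:8885356-8885655 (plus) with 2 inverted boxes, Lss at chr10:76531355-76531654 (plus) with 1, and Hsd17b7 at chr1:169969156-169969455 (minus) with 3 and an E-box. Npc2, shown as the transport gene with most CCAAT boxes, lies at chr12:84773063-84773362 (minus) with 1 in each orientation.
Hmgcs1: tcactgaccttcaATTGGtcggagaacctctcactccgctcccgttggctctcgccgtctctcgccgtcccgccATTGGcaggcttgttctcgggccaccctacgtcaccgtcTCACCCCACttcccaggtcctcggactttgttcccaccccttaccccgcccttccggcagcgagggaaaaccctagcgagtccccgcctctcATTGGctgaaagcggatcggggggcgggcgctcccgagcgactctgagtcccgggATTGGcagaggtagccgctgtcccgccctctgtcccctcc
Idi1: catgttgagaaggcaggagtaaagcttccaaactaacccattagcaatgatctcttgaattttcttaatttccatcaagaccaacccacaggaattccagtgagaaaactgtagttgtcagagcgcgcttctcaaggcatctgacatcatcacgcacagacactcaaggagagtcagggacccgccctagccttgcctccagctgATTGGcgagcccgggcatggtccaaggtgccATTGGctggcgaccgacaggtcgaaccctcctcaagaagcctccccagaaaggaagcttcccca
Lss: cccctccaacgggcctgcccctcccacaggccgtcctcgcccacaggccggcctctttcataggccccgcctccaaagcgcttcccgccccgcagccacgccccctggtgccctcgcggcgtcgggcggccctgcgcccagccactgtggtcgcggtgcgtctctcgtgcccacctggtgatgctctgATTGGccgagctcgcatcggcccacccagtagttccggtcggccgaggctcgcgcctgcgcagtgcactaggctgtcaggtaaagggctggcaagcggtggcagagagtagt
Hsd17b7: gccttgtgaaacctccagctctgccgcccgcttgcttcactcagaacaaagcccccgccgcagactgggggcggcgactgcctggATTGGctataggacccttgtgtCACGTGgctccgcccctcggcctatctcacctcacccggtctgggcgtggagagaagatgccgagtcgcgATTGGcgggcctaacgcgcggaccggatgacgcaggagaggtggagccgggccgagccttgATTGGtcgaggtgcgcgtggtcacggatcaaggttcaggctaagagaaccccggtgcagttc
Npc2: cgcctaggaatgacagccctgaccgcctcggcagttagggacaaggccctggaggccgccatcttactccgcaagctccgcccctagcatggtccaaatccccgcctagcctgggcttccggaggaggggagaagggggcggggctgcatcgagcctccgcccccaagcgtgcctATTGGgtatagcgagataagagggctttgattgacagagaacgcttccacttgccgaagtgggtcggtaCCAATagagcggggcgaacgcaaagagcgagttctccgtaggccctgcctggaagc

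The first comparison asked how the genes differ between genotypes over both experiments, with experiment as a term of the model. Synthesis genes lay mostly above 0: 14 of 17 had a higher value in heterozygous mice, with a median difference of 0.055 log2 units, while 51.0% of all genes were above 0 and their median was 0.002. Transport and turnover lay on the other side, with 8 of 9 genes below 0 and a median of -0.065, which was -0.106 without heterozygous replicate 1 of experiment 2 and -0.024 without replicate 3 of that group. Of the 5 regulators 2 were above 0, with a median of -0.042. None of the 31 genes passed an adjusted p of 0.05 with limma, as was true of all genes tested (0%). At an unadjusted p under 0.05 stood 4 genes higher in heterozygous mice, all of them synthesis enzymes (Idi1, Hmgcs1, Fdft1 and Fdps), where 2.64% of all genes did, and 2 lower, both transporters (Abcg1 and Npc2), where 2.61% did. The synthesis count depended on single arrays. Without wild-type replicate 2 of experiment 1, the array with striatal markers, 10 of 17 enzymes were above 0 and the median was 0.046. The count was also 10 of 17 without heterozygous replicate 1 of experiment 1. Leaving out heterozygous replicate 2 of experiment 2 gave 11 of 17 and the lowest median, 0.037. Over all arrays left out in turn the count was 10 to 16 of 17, and the count of transport genes below 0 was 6 to 9 of 9. At an unadjusted limma p under 0.05, 2 to 4 enzymes were then higher and 1 to 3 transport genes lower.

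**Figure D1:**
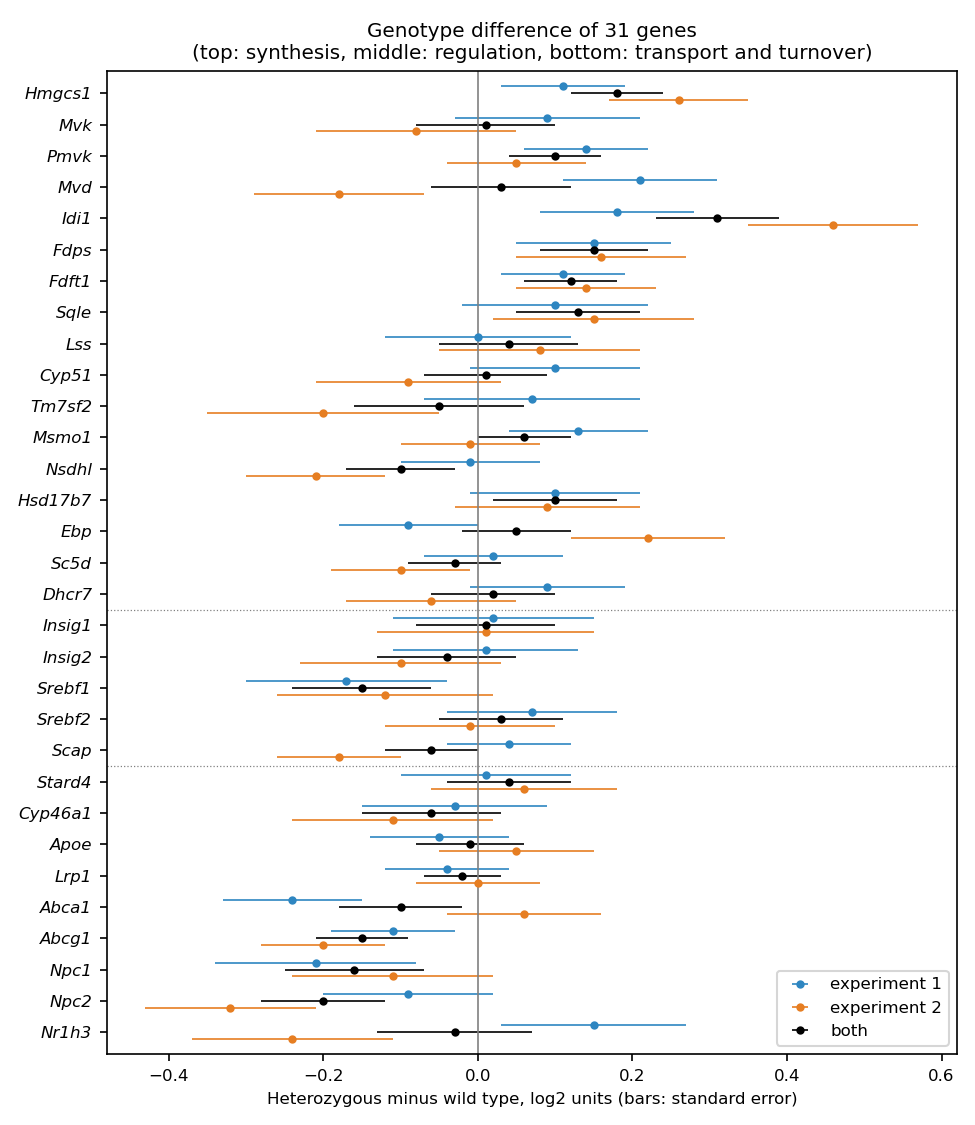
Genotype difference (heterozygous minus wild type, log2 units, x axis) of each of the 31 genes (y axis), for experiment 1 (blue), experiment 2 (orange) and both together (black), with bars of 1 standard error. Idi1 lies farthest to the right at 0.31 over both experiments, and Npc2 farthest to the left at -0.20.

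Idi1, isopentenyl-diphosphate isomerase, which makes the second building block of the isoprenoid chain, had the lowest unadjusted limma p of the set (0.0012). In experiment 1 it was at 8.69, 8.38, 8.58 and 8.67 in wild-type and 8.87, 8.73 and 8.68 in heterozygous mice. In experiment 2 it was at 6.11, 5.78 and 5.79 against 6.34, 6.31 and 6.42. The groups overlapped in experiment 1, by the lowest heterozygous mouse, and did not in experiment 2. The difference was 0.18 ± 0.10 in experiment 1, 0.46 ± 0.11 in experiment 2 and 0.31 ± 0.08 over both (1.24-fold; exact permutation p within experiments 0.00714, limma adjusted p 0.551, 0.325 to 1 over the alternatives). Its other probe set, Idi1 10403413, gave 0.24 ± 0.10 over both; there the heterozygous mice of experiment 2 were at 5.54, 6.11 and 6.14 against 5.85, 5.58 and 5.47, which overlap.

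Hmgcs1, the cytosolic synthase of HMG-CoA at the entry to the mevalonate pathway, showed a like order. In experiment 1 its values were 10.72, 10.41, 10.70 and 10.66 in wild-type against 10.75, 10.77 and 10.66 in heterozygous mice, and those of experiment 2 were 9.35, 9.34 and 9.32 against 9.55, 9.58 and 9.66. Again the groups overlapped in experiment 1 and were apart in experiment 2, where the wild-type mice lay within 0.03 of each other. The differences were 0.11 ± 0.08, 0.26 ± 0.09 and, over both, 0.18 ± 0.06 (1.13-fold; exact permutation p 0.0129, limma adjusted p 0.826). Without wild-type replicate 2 the difference in experiment 1 was 0.03.

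The next enzymes of the chain differed less. Pmvk, phosphomevalonate kinase, was at 7.87, 7.71, 7.85 and 7.64 in wild-type and 7.97, 7.89 and 7.87 in heterozygous mice of experiment 1, and at 9.01, 8.77 and 8.93 against 8.94, 8.93 and 8.99 in experiment 2 (0.10 ± 0.06 over both, limma adjusted p 0.934). Fdps, which makes farnesyl diphosphate, was at 9.47, 9.20, 9.39 and 9.40 against 9.55, 9.59 and 9.39, and at 9.55, 9.41 and 9.81 against 9.83, 9.69 and 9.72. Its difference was 0.15 ± 0.07 over both (exact permutation p 0.0586, limma adjusted p 0.934), and the genotypes overlapped in each experiment. Fdft1, squalene synthase, the first enzyme committed to sterols, was at 10.70, 10.81, 10.69 and 10.80 against 10.88, 10.80 and 10.90, and at 10.72, 10.80 and 10.69 against 10.73, 10.90 and 11.00. Its difference was 0.12 ± 0.06 (exact permutation p 0.0214, limma adjusted p 0.934), and 0.15 ± 0.07 at its other probe set, Fdft1 10412909.

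From lanosterol synthase onward the genotype values fell on both sides of 0. Nsdhl, a sterol dehydrogenase on the X chromosome, was the enzyme with the lowest difference, -0.10 ± 0.07 over both. It was at 9.53, 9.51, 9.75 and 9.60 against 9.65, 9.57 and 9.54 in experiment 1, and at 8.94, 9.05 and 8.89 against 8.59, 8.85 and 8.82 in experiment 2, where every heterozygous mouse was below every wild-type mouse. Its highest value in experiment 1 was that of the mouse with the male pattern, and without it the difference there was 0.04. Ebp, the sterol isomerase, also X-linked, was at 8.79, 8.81, 8.79 and 8.77 against 8.81, 8.70 and 8.58, and at 9.16, 8.82 and 8.89 against 9.10, 9.25 and 9.18. It differed by -0.09 ± 0.09 in experiment 1 and by 0.22 ± 0.10 in experiment 2. Lss, lanosterol synthase, which closes the sterol rings, was at 8.84, 8.49, 8.89 and 8.75 against 8.80, 8.85 and 8.57, then at 7.24, 6.91 and 7.27 against 7.29, 7.32 and 7.06 (0.04 ± 0.09 over both). Hsd17b7, a sterol reductase, was at 9.43, 9.20, 9.47 and 9.39 against 9.54, 9.45 and 9.44, then at 8.21, 8.30 and 7.97 against 8.21, 8.53 and 8.02 (0.10 ± 0.08). In both of these the genotypes overlapped in each experiment.

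Tm7sf2, a sterol reductase of the lanosterol branch, was at 7.78, 7.75, 7.84 and 7.84 against 7.85, 7.89 and 7.89 in experiment 1, and at 8.32, 8.36 and 8.24 against 8.37, 8.37 and 7.60 in experiment 2. The last mouse, heterozygous replicate 3, was below every other mouse of either experiment. Dhcr7, which makes cholesterol in the last step of one branch, was at 8.88, 8.64, 8.93 and 8.85 against 8.98, 8.94 and 8.83, then at 9.11, 9.31 and 9.30 against 8.97, 9.36 and 9.23 (0.02 ± 0.08). Of the enzymes not listed by mouse, Mvk, the mevalonate kinase, ranged from 8.10 to 8.93 over the 13 mice, Mvd, the mevalonate diphosphate decarboxylase, from 8.02 to 8.61, Sqle, the squalene epoxidase, from 8.37 to 9.60, and the demethylase Cyp51 from 7.67 to 8.61. Msmo1, a sterol oxidase, ranged from 10.02 to 10.48 and Sc5d, a sterol desaturase, from 9.31 to 9.88. Their genotype differences over both experiments lay between -0.03 (Sc5d) and 0.13 (Sqle), with limma adjusted p of 0.934 or above.

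**Figure D2:**
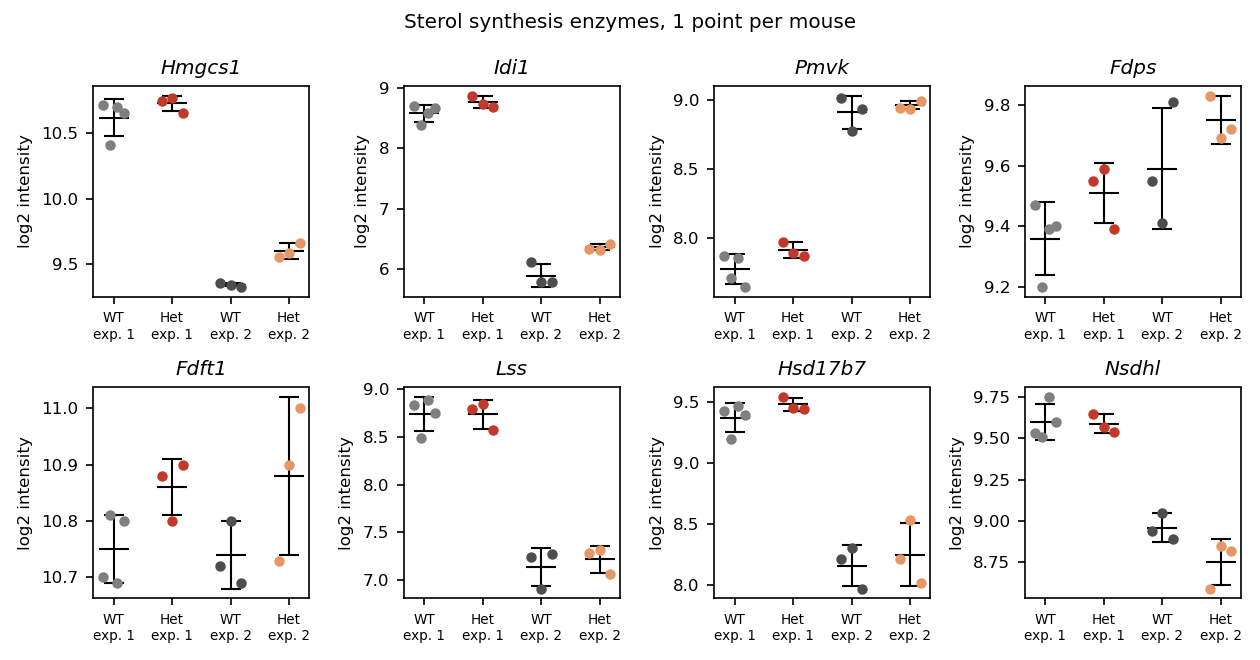
Log2 intensity (y axis) of 8 synthesis enzymes in each mouse of the 4 groups (x axis), with the group mean and standard deviation as bars, and an axis range of its own for each gene. In Idi1 and Hmgcs1 the heterozygous mice of experiment 2 (6.31 to 6.42, and 9.55 to 9.66) lie above the wild-type mice (5.78 to 6.11, and 9.32 to 9.35). They are the only 2 of the 31 genes that do, against 4.32% of all genes. At the other Idi1 probe set, which is not shown, the genotypes of experiment 2 overlap.

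Among the regulators, Srebf1, which encodes the SREBP of fatty acid and sterol genes, had the lowest p: 8.47, 8.29, 8.57 and 8.56 in wild-type and 8.38, 8.31 and 8.23 in heterozygous mice of experiment 1, and 8.36, 8.88 and 8.61 against 8.75, 8.48 and 8.24 in experiment 2. The difference was -0.15 ± 0.09 (limma adjusted p 0.934), with overlap in both. Srebf2, the main SREBP of sterol synthesis, was at 10.63, 10.53, 10.59 and 10.53 against 10.63, 10.63 and 10.65, then at 9.53, 9.98 and 9.99 against 9.87, 9.93 and 9.69 (0.03 ± 0.08). Scap, the escort protein, was at 10.13, 10.19, 10.22 and 10.20 against 10.22 in all 3 heterozygous mice, then at 10.38, 10.53 and 10.60 against 10.41, 10.36 and 10.20 (-0.06 ± 0.06). In experiment 1 every heterozygous mouse was above every wild-type mouse for Srebf2 and Scap, in each by less than the rounding of these values. Insig2 was at 10.24, 9.80, 9.96 and 10.09 against 10.14, 10.09 and 9.87, then at 9.83, 9.43 and 9.44 against 9.48, 9.54 and 9.36 (-0.04 ± 0.09). Insig1, itself a target of the SREBPs, ranged from 8.74 to 9.87 over all mice and differed by 0.01 ± 0.09.

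In transport and turnover the lowest p were those of Abcg1 and Npc2. Abcg1, which passes cholesterol to lipoprotein particles, was at 10.09, 10.15, 10.21 and 10.06 in wild-type and 10.07, 10.03 and 9.93 in heterozygous mice of experiment 1, and at 8.93, 9.10 and 9.0 against 8.87, 8.76 and 8.81 in experiment 2. All 3 heterozygous mice of experiment 2 were below the wild-type mice, and in experiment 1 only the highest heterozygous mouse reached the wild-type range. The difference was -0.15 ± 0.06 (1.11-fold lower; exact permutation p 0.00429, limma adjusted p 0.826, 0.494 to 1 over the alternatives). Npc2, the soluble lysosomal cholesterol carrier, was at 8.93, 8.79, 8.97 and 8.93 against 8.89, 8.80 and 8.73, then at 8.67, 9.07 and 8.65 against 8.44, 8.65 and 8.35, apart in experiment 2 by less than the rounding. Its difference was -0.20 ± 0.08 (1.15-fold lower; exact permutation p 0.0214, limma adjusted p 0.897), and in experiment 2 -0.32 ± 0.11, or -0.18 without wild-type replicate 2, the mouse at 9.07.

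Npc1, the membrane partner of NPC2, was at 10.96, 10.98, 10.97 and 10.89 against 10.79, 10.80 and 10.63 in experiment 1, where the genotypes did not overlap (-0.21 ± 0.13; exact permutation p 0.0286, which no such comparison of 7 mice can go below). It was at 9.40, 9.19 and 9.56 against 8.99, 9.63 and 9.21 in experiment 2, where they did (-0.11 ± 0.13). Abca1, the lipid exporter that loads apolipoprotein E, was at 9.20, 8.88, 9.29 and 9.10 against 8.90, 8.91 and 8.82, then at 8.33, 8.23 and 8.14 against 8.25, 8.31 and 8.32. Its difference was -0.24 ± 0.09 in experiment 1 and 0.06 ± 0.10 in experiment 2. Cyp46a1, the neuronal cholesterol hydroxylase, was at 10.86, 11.12, 10.82 and 10.74 against 10.93, 10.88 and 10.76, then at 9.86, 10.17 and 10.11 against 10.24, 9.84 and 9.74 (-0.06 ± 0.09). The highest value was that of the array with striatal markers. Stard4, a cytosolic cholesterol carrier, was at 7.77, 7.44, 7.38 and 7.41 against 7.55, 7.72 and 7.27, then at 6.83, 6.87 and 6.97 against 7.03, 6.98 and 6.84, and was the transport gene with a value above 0 (0.04 ± 0.08). Nr1h3, the oxysterol receptor LXRα, was at 6.77, 6.76, 6.83 and 6.71 against 6.92, 6.88 and 6.95, then at 6.91, 7.14 and 7.53 against 7.07, 7.0 and 6.80: above wild type throughout experiment 1 and overlapping in experiment 2. The lipid carrier Apoe ranged from 11.85 to 13.17 and the receptor Lrp1 from 11.10 to 11.50, with differences of -0.01 ± 0.07 and -0.02 ± 0.05.

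**Figure D3:**
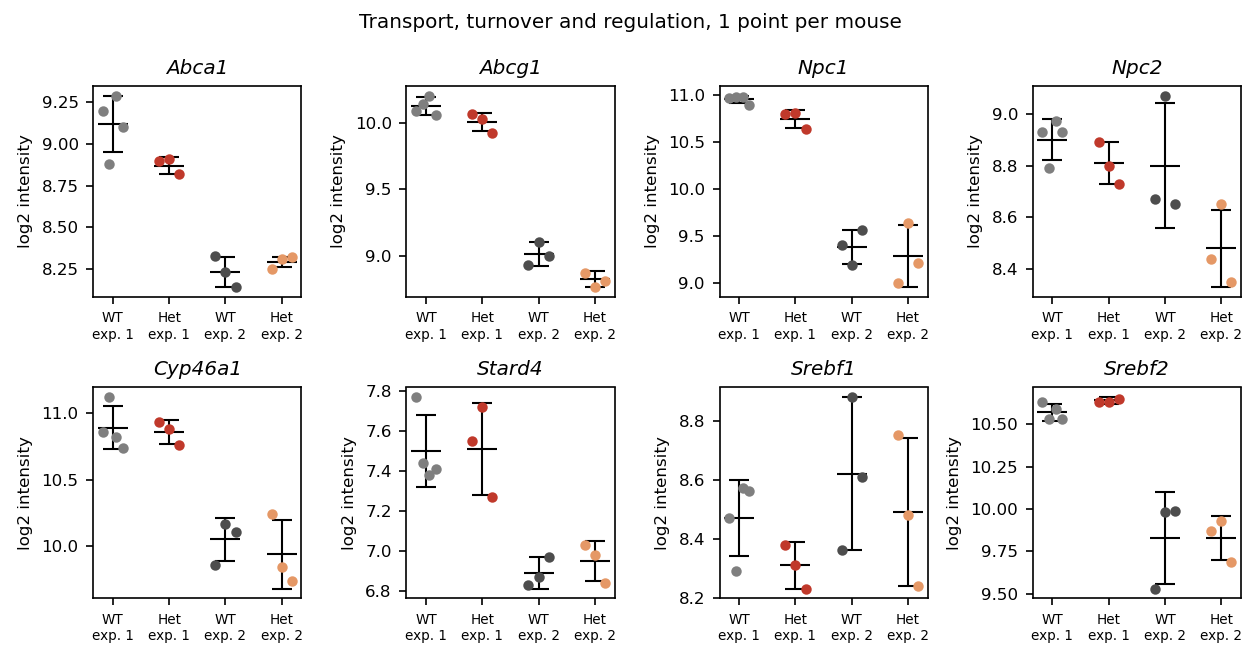
Log2 intensity (y axis) of 6 transport and turnover genes and 2 regulators in each mouse of the 4 groups (x axis), with the group mean and standard deviation as bars, and an axis range of its own for each gene. Npc1 is lower in the 3 heterozygous mice of experiment 1 (10.63 to 10.80) than in wild type (10.89 to 10.98), and Abcg1 in those of experiment 2 (8.76 to 8.87 against 8.93 to 9.10). Such genes were 1 of 31 in experiment 1 and 3 of 31 in experiment 2, against 2.75% and 5.17% of all genes.

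Taken apart, the experiments named different genes, though no gene of the set passed the test of a difference in genotype effect between them. In experiment 1, 14 of 17 synthesis genes were above 0, with a median of 0.103, where 57.5% of all genes were above 0 and the median was 0.015. Without wild-type replicate 2 that median was 0.045. Every heterozygous mouse was above every wild-type mouse for 5 of the 31 genes, Mvd, Tm7sf2, Srebf2, Scap and Nr1h3, and below for 1, Npc1, against 4.47% and 2.75% of all genes. Mvd had the largest difference of the enzymes there, 0.21 ± 0.10 (exact permutation p 0.0286, limma adjusted p 1). In experiment 2, 9 of 17 synthesis genes were above 0, with a median of 0.052, where 47.0% of all genes were. Heterozygous mice were all above wild type for 2 of 31 genes, Hmgcs1 and Idi1, and all below for 3, Nsdhl, Abcg1 and Npc2, against 4.32% and 5.17% of all genes. In neither experiment did any of the 31 pass the threshold, where 0.0201% of all genes did in experiment 1 and 0% in experiment 2. At an unadjusted p under 0.05, 1 of the 31 was higher in experiment 1 (Mvd) and 1 lower (Abca1), where 1.34% and 2.16% of all genes were. In experiment 2 these were 3 higher (Idi1, Hmgcs1 and Ebp) and 3 lower (Npc2, Abcg1 and Nsdhl), where 4.9% and 5.34% of all genes were.

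No gene of the set was shown to differ in its genotype effect between the experiments. The test of that difference passed for 0 of 31 genes and for 0% of all genes (limma), and 4 of the 31 had an unadjusted p under 0.05, 2 above 0 and 2 below, where 3.24% and 3.29% of all genes did. These were Mvd (-0.40 ± 0.15), Nr1h3 (-0.39 ± 0.17), Ebp (0.32 ± 0.13) and Abca1 (0.30 ± 0.14), with limma adjusted p of 0.74 to 0.756. For Idi1 the difference between the effects was 0.29 ± 0.15 and for Hmgcs1 0.15 ± 0.12. Markers of other cell types moved in the same comparison: all 10 myelin genes were below 0 in experiment 1 (median -0.265) and above 0 in experiment 2 (median 0.216), and 8 choroid plexus genes likewise (-1.085 and 0.377). Their part in the values of the cholesterol genes was not tested.

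**Figure D4:**
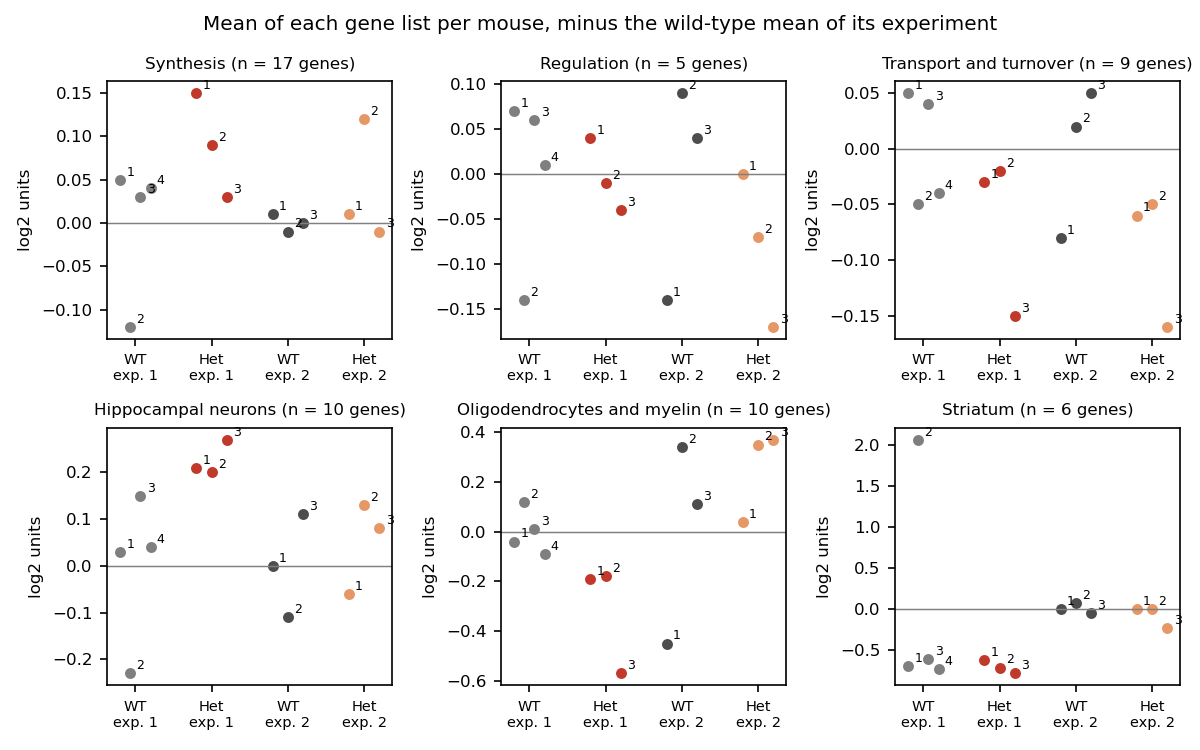
Mean log2 intensity of a gene list in each mouse, minus the wild-type mean of the same experiment (y axis, log2 units), for the 3 classes and 3 lists of marker genes, with the replicate number at each point. Wild-type replicate 2 of experiment 1 is the lowest mouse for synthesis (-0.12) and the highest for striatal markers (2.06).

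By mouse, the mean of the 17 synthesis genes separated the genotypes in neither experiment. Against the wild-type mean of its experiment it was 0.05, -0.12, 0.03 and 0.04 in the wild-type mice and 0.15, 0.09 and 0.03 in the heterozygous mice of experiment 1, and 0.01, -0.01 and 0.00 against 0.01, 0.12 and -0.01 in experiment 2. In experiment 2 the median of the class rested on single mice: it was -0.046 when heterozygous replicate 2 was left out, and -0.004 when wild-type replicate 3 was. The mean of the 9 transport genes was 0.05, -0.05, 0.04 and -0.04 against -0.03, -0.02 and -0.15 in experiment 1, and -0.08, 0.02 and 0.05 against -0.06, -0.05 and -0.16 in experiment 2. In each experiment the lowest mouse was heterozygous replicate 3. Marker lists went different ways over both experiments, where 51.0% of all genes were above 0. The 10 hippocampal neuron markers were above 0 in 9 genes (median 0.146) and the 10 astrocyte markers in 8 (median 0.071). Below 0 were 8 of 10 myelin genes (median -0.035), all 8 choroid plexus genes (-0.305) and all 6 striatal genes (-0.409). Microglial markers were above 0 in 4 of 8 and endothelial markers in 3 of 5. In experiment 1 the neuron markers had a mean of 0.20 to 0.27 in heterozygous mice, against -0.23 to 0.15 in wild type, and this was not tested as a part of the synthesis values.

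The largest differences in the set were between the experiments. With genotype as a term, 28 of 31 genes passed the threshold, 8 higher in experiment 2 (25.8%) and 20 lower (64.5%), where 41.8% of all genes were higher and 35.4% lower. The synthesis enzymes split, 6 higher and 9 lower, while 8 of 9 transport genes and 3 of 5 regulators were lower. The medians were -0.28 for synthesis, -0.509 for regulation and -0.743 for transport and turnover, and 0.07 for all genes. Without overlap between experiments, 2 genes were higher (Pmvk and Ebp) and 17 lower in every mouse of experiment 2, against 25.4% and 27.5% of all genes. The injections differ between the experiments, and the labels name no array run or normalisation batch, so the injections cannot be told apart from anything else that differed.

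Idi1 fell most, from the range 8.38 to 8.87 to 5.78 to 6.42 (-2.55 ± 0.08, or 5.86-fold lower, limma adjusted p 1.47e-13), and its other probe set by more (-2.88 ± 0.10). Lss (-1.56 ± 0.09, 2.95-fold), Hsd17b7 (-1.22 ± 0.08, 2.32-fold) and Hmgcs1 (-1.21 ± 0.06, 2.32-fold) fell next among the enzymes, each from the values by mouse above and with no overlap. In transport, Npc1 (-1.52 ± 0.09, 2.86-fold), Abcg1 (-1.15 ± 0.06, 2.22-fold), Apoe (-1.11 ± 0.07, 2.15-fold), Cyp46a1 (-0.88) and Abca1 (-0.74) fell. So did the regulators Srebf2 (-0.77), Insig1 (-0.67) and Insig2 (-0.51). The other enzymes that fell were Sqle (-0.85), Nsdhl (-0.73), Cyp51 (-0.45), Mvk (-0.45) and Sc5d (-0.28), and Stard4 (-0.59), Lrp1 (-0.21) and Npc2 (-0.21) fell too. Pmvk rose most, by 1.10 ± 0.06 (2.14-fold, limma adjusted p 9.22e-11), next to Tm7sf2 (0.38), Dhcr7 (0.35), Ebp (0.31), Nr1h3 (0.25), Fdps (0.23), Scap (0.22) and Mvd (0.20). Fdft1, Msmo1 and Srebf1 did not pass (0.00 ± 0.06, 0.14 ± 0.06 and 0.16 ± 0.09), while the other probe set of Fdft1 was lower (-0.65 ± 0.07). The calls of Mvd, Npc2 and Nr1h3 were each lost without some single arrays (8, 6 and 3 of the 13).

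**Figure D5:**
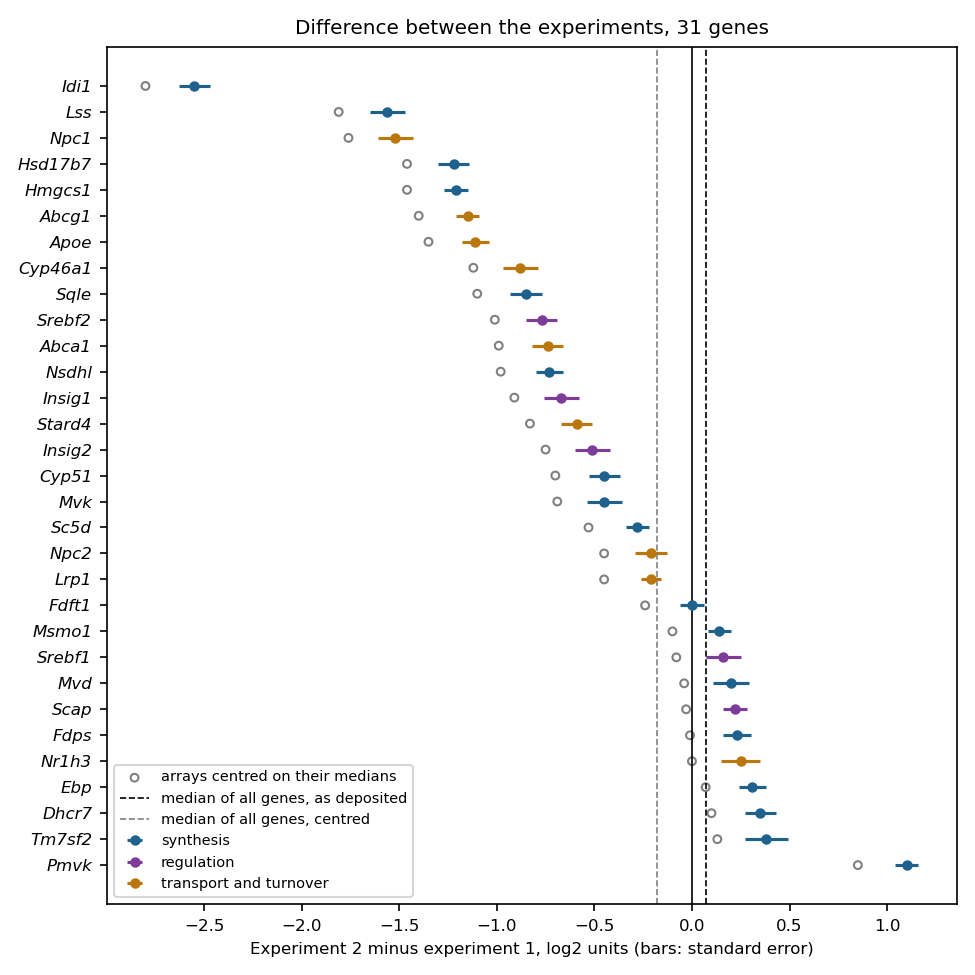
Difference between experiment 2 and experiment 1 (log2 units, x axis) of the 31 genes (y axis), with bars of 1 standard error and colours for the class. Open circles give the difference after each array was centred on its median, and dashed lines the median of all genes before (0.07) and after (-0.18). Idi1 lies at -2.55 and Pmvk at 1.10 as deposited, and with centring Pmvk alone of the 8 higher genes keeps its call.

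Which genes count as higher depended on the scale. Centring each array on its median moved the difference of the median gene by -0.245, from 0.07 to -0.18, and turned the split of all genes to 19.6% higher and 49.8% lower. Among the 31 genes, 1 was then higher, Pmvk, and 21 lower. Mvd, Fdps, Tm7sf2, Ebp, Dhcr7, Scap and Nr1h3 lost their call, and Fdft1 became lower (-0.24). Quantile normalisation within experiments gave the same counts, 1 and 21. With the dimmest 30% of genes left out, 30.3% of all genes were higher and 48.8% lower, and the counts of the set were 8 and 20. Marker lists were read as deposited, where 41.8% of all genes were higher and 35.4% lower in experiment 2. Of 10 astrocyte markers 9 passed as lower and 1 as higher (median -0.682), and of 10 hippocampal neuron markers 6 and 1 (median -0.363). Myelin genes gave 5 lower and 2 higher of 10, microglial markers 3 and 3 of 8, and endothelial markers 3 and 2 of 5. Choroid plexus genes gave 4 lower of 8 and striatal markers 1 lower of 6, with 0 higher in each. Their part in the lower values of the lipid genes was not tested.

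Neighbouring pathways were read from 3 further lists. Of 9 measured genes of the isoprenoid branch and of other sterol enzymes, 8 were above 0 in the genotype comparison over both experiments (median 0.126). Of all genes 51.0% were above 0, and 0 of the 9 passed. In experiment 1 only 5 of 9 were above 0 (median 0.016), where 57.5% of all genes were. In experiment 2 these were 8 of 9 (median 0.184), where 47.0% of all genes were, unlike the synthesis class, whose higher count was in experiment 1. The lowest p were those of Coq2 (0.16 ± 0.06), of ubiquinone synthesis, Dhdds (0.15 ± 0.07), of dolichol synthesis, and Erg28 (0.14 ± 0.07), a scaffold of sterol enzymes, with limma adjusted p of 0.86 to 0.934. Of 11 SREBP targets in fatty acid synthesis, 6 were above 0 (median 0.008) and 0 passed. Scd1, the stearoyl-CoA desaturase, was lower (-0.26 ± 0.08, limma adjusted p 0.795), while the malic enzyme Me1 gave 0.17 ± 0.06 and the acetyl-CoA carboxylase Acaca 0.12 ± 0.08. Of 27 other transport, esterification and oxysterol genes, 13 were above 0 (median -0.005) and 0 passed. Lcat, which esterifies cholesterol on lipoproteins, gave 0.28 ± 0.07 (limma adjusted p 0.532), the oxysterol hydroxylase Cyp7b1 0.39 ± 0.11 (adjusted p 0.729) and the lipid carrier Apod -0.22 ± 0.09. At an unadjusted p under 0.05 these lists held 4 genes higher and 2 lower, where 2.64% and 2.61% of all genes were.

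Between the experiments, where 41.8% of all genes were higher and 35.4% lower (19.6% and 49.8% with arrays centred), more genes of each list were lower than higher as deposited. Isoprenoid and other sterol genes were lower in 8 of 9 (median -0.451), led by Lbr, a sterol reductase of the nuclear membrane (-1.18 ± 0.09). Fatty acid targets were lower in 10 of 11 (median -0.528), with Scd1 at -1.41 ± 0.08 and the acetyl-CoA synthetase Acss2 at -1.40 ± 0.09, and the fatty acid synthase Fasn at 0.00 ± 0.07, not past the threshold. Of the other transport genes 14 were lower and 7 higher: the lysosomal lipase Lipa (-2.23 ± 0.12), the oxysterol-binding protein Osbp (-2.01 ± 0.12) and Vldlr, a lipoprotein receptor (-1.03 ± 0.07), fell, while Tspo, of the outer mitochondrial membrane, rose by 1.00 and Scarb1, a receptor for high-density lipoprotein, by 0.56.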

How the data were processed

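Total RNA of 13 hippocampi was measured on Affymetrix Mouse Gene 1.0 ST arrays. The deposited table holds log2 intensities of 35556 probe sets. The submitters' processing notes name RMA and the oligo package for them, with no version, and the sources used here do not say whether all arrays were normalised together. Names come from the platform's annotation: 21789 had 1 gene symbol, 1621 several and 12146 none listed. For 19938 genes the probe set with the highest mean was tested in R 4.3.3 by lmFit and eBayes of limma 3.58.1. Array weights used statmod 1.5.0.

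Genotype effects over both experiments, and experiment differences, are from an additive model of the pair, and the effects within experiments and their difference came from a model of the 4 groups. Tests were two-sided, adjusted by Benjamini-Hochberg over all genes, at a threshold of 0.05, with exact permutation within experiments for single genes. The smallest such p is 0.00143 over both, 0.0286 for 3 against 4 mice and 0.1 for 3 against 3. The number of arrays limits the precision, and no depth applies. Values tied between arrays, as median polish gives, can make an SD too small. Scap in heterozygous mice of experiment 1 and Hmgcs1 in wild-type mice of experiment 2 had SDs near 0 with no tied values.

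The members and lists were chosen with earlier results of these data known. Values by mouse are given for the genes of lowest p in the genotype comparison (6 synthesis, 4 regulation and 6 transport) and for the 6 with the largest difference each way between experiments. Alternatives were every probe set, the mean of a gene's probe sets, leaving out the dimmest 30% of genes, 2 other scalings, array weights, eBayes with trend and robust, each experiment alone, a replicate block, no experiment term, and each array left out. The fit was tested on simulated data.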

Additional observations from a re-analysis of the deposited data

Results flagged for a closer look

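In wild-type mice of experiment 1, the group of 4, 3 of the 31 genes had a mouse set apart from its group by a wide gap relative to the group's range (Dixon's test). The lowest value of Mvk was 8.61 and that of Apoe 12.87, both in wild-type replicate 2, the array with striatal markers. The highest value of Stard4 was 7.77, in wild-type replicate 1. Chance flags about 1 in 20 groups. Without wild-type replicate 2, the count of synthesis genes above 0 in the genotype comparison over both experiments was 10 of 17. It was the same without heterozygous replicate 1 of experiment 1.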

How the results depend on the processing

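None of the 31 genes passed the threshold in a genotype comparison under any alternative run. With array weights, 21 of all genes passed over both experiments and 163 in experiment 1, where 4 passed as reported. In experiment 1 the count of all genes was 0 with every probe set and 2 with its arrays alone. The median of transport was -0.127 over both without the experiment term, and -0.017 in experiment 2 with array weights. The sign of a gene's genotype difference changed in 39 of 682 values over both, 23 of 682 and 22 of 682 within experiments 1 and 2, and 27 of 651 for their difference. For the difference between experiments, every probe set gave 26086 past the threshold, against 15385 genes. Centring and quantile normalisation gave medians of -0.525 and -0.522 for synthesis, -0.754 and -0.758 for regulation, and -0.988 and -0.987 for transport. Among genes with a call in either setting, signs turned for Mvd (-0.04 in both), Fdps (-0.01 in both) and Scap (-0.03 in both). Fdft1, at 0.00 as deposited, went to -0.24 and -0.25, and to -0.33 with the mean of its probe sets. Without a call, Msmo1 turned from 0.14 to -0.10 and Srebf1 from 0.16 to -0.08 with centring. Centring moves every gene by the same -0.245, and the other probe set of Fdft1 was itself lower. For quantile normalisation the cause was not tested. With each array left out, all genes past the threshold were 0 to 2 over both, 0 to 48 in experiment 1 (48 without wild-type replicate 2) and 0 to 91 in experiment 2 (91 without heterozygous replicate 1). Medians in experiment 2 were -0.046 to 0.107 for synthesis and -0.105 to -0.005 for transport. For each transport gene's difference of genotype effect between experiments, the median over genes was -0.077 to 0.065. Of the 31 genes, 25 to 29 then passed between the experiments: Mvd lost its call with any of 8 arrays left out (0.16 to 0.21), Npc2 with 6 (-0.20 to -0.17) and Nr1h3 with 3 (0.14 to 0.23), while Msmo1 gained a call with 3 and Srebf1 with 2. Deviations of same-numbered mice from their group means correlated at 0.221, -0.094 and -0.228 in experiment 1, and at -0.213, -0.038 and -0.123 in experiment 2. The main model did not pair mice by number, and so few mice cannot exclude such a pairing. With the replicate block 1 gene passed in experiment 1, and the transport median over both was -0.092.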
